A study of Thermothelomyces thermophilus ATCC 42464 with 8 samples.

Results

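DF1406, a strain of the thermophilic fungus Myceliophthora thermophila ATCC 42464 that was built to use d-xylose through the Weimberg pathway, was set against JG207, the strain it was made from. The comparison used every gene of the count table that has a gene ID, 9110 of 9110, and 8335 of them had enough counts to be tested. DF1406 lacks Mtxyl1, which encodes the d-xylose reductase, and overexpresses Mtxyd1 of M. thermophila together with xylD, xylX and xylA of Caulobacter crescentus in codon-optimized form. DF1102 lacks Mtxyl1 and carries none of the added pathway genes, and DF1501 lacks Mtxyl1 and overexpresses Mtxyd1, xylD, BxxylX and KsaD. JG207 overexpresses the malate transporter gene Aomae and the pyruvate carboxylase gene Aopyc, and since the other 3 strains descend from it, all 4 carry these genes. Mycelium was grown for 24 h at 45 °C and 150 rpm in Vogel's minimal medium with 2% glucose, washed, and moved to the same medium with 1% d-xylose for 4 h before RNA was taken. Each strain gave 2 of the 8 libraries, and no source used here says whether these were separate cultures. The p-values therefore rest on the spread within pairs of libraries, taken over all 4 strains, and that spread may be technical. DF1406 is 1 engineered strain in which the pathway genes were inserted at random and in multiple copies, and the cassettes use promoters or terminators named for the tef, eif, gpdA and cbh genes.

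In fungi d-xylose normally enters metabolism through the oxo-reductive pathway. A d-xylose reductase makes xylitol, a xylitol dehydrogenase makes d-xylulose, and a xylulokinase makes d-xylulose 5-phosphate for the pentose phosphate pathway. The Weimberg pathway instead oxidizes d-xylose to d-xylonate with a d-xylose dehydrogenase (Mtxyd1), removes water in steps catalysed by xylD and xylX, and ends with a dehydrogenase (xylA or KsaD) that makes α-ketoglutarate, an intermediate of the tricarboxylic acid cycle. d-Xylose and its oligomers are also known in filamentous fungi as inducers of the secreted enzymes that take xylan apart.

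The targeted genes were read first. Mtxyl1 (MYCTH_43671) stood at 102 and 109 RPKM in DF1406, against 1676 and 1773 RPKM in JG207. Mtxyl1 was thus 15.7-fold lower in DF1406, a log2 fold change of -3.97 (SE 0.16, adjusted p = 3.63e-06). RPKM is the read count scaled by gene length and library total. Reads were still counted in Mtxyl1 in the strain that lacks it, and the part of the gene they come from was not analysed here. The paper describes a deletion donor with a marker cassette and another without it that places a stop codon between the flanking sequences. Which of them was used for DF1406 is not given in the sources used here. Of the genes on either side of Mtxyl1, MYCTH_2294281 changed by -0.32 (adjusted p = 0.0515) and MYCTH_2073132 by 0.17 (adjusted p = 0.241) on the log2 scale, neither past the test, while MYCTH_2294289 beyond them was lower by a log2 fold change (log2 FC) of -1.07 (adjusted p = 0.00143). Mtxyd1 (MYCTH_112471), the d-xylose dehydrogenase gene, stood at 4071 and 3639 RPKM in DF1406, against 244 and 216 RPKM in JG207. It was 17.4-fold higher, a log2 fold change of 4.12 (SE 0.22, adjusted p = 7.25e-06), and its counts hold reads of the native gene and of the inserted copies together. Both genes moved in the direction of the strain labels. DF1102, without an inserted copy, had 1137 and 1194 RPKM of Mtxyd1, so its rise over JG207 does not by itself mark the inserted copies. The bacterial genes xylD, xylX and xylA have no entry in the count table, so their levels were not measured here.

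Adjusted p-values are from the quasi-likelihood test of edgeR, with Benjamini-Hochberg adjustment across the 8335 tested genes. A gene counted as called where its adjusted p was 0.05 or less and its fold 2 or more. By this rule 594 genes, 7.13% of those tested, were higher in DF1406 than in JG207, and 334 genes, 4.01%, were lower. In each of the 928 genes both DF1406 libraries lay on the same side of both JG207 libraries. The calling rule itself favours such genes, so non-overlap of libraries is no separate support for a call. The share of all tested genes without overlap was not computed. Large folds were more common among the rises than among the falls. Among the higher genes 206 differed at least 4-fold and 89 at least 8-fold, and among the lower genes 40 and 7 did. The 594 higher genes held 21.8% of the CPM (counts scaled to a common library total) in DF1406, against 3.32% in JG207, and the 334 lower genes held 3.74% in DF1406, against 9.79% in JG207. The median log2 fold change of all tested genes was -0.0475. A description, which is that of the best match in the yeast Saccharomyces cerevisiae, was present for 214 of the higher and 112 of the lower genes.

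**Figure D1:**
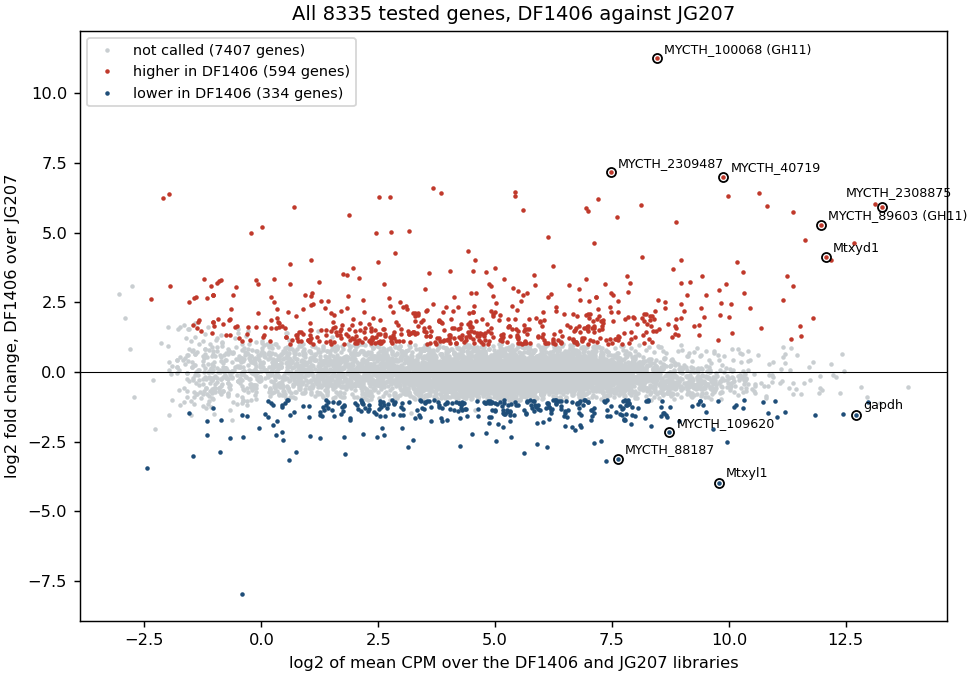
Each point is one of the 8335 tested genes, with the log2 of its mean CPM over the DF1406 and JG207 libraries on the horizontal axis and the log2 fold change, DF1406 over JG207, on the vertical axis; red marks the 594 genes called higher in DF1406 and blue the 334 called lower. The higher genes reach 11.26 (MYCTH_100068, a xylanase of family GH11), and Mtxyl1 lies at -3.97. The lowest point is MYCTH_107763, which had 0 counts in both DF1406 libraries against 34 and 29 in JG207, so that its fitted value is no bound.

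The library totals of the series lay between 20727346 and 21408353 counted reads, so depth was close to equal. On principal components of log2 CPM, component 1 held 69.2% of the variance and placed DF1406 at 16.6 and 17.1, DF1102 at 38.4 and 39.8, DF1501 at 4.76 and -15.7, and JG207 at -50.1 and -50.9. The spread between the libraries of a strain, as a root mean square deviation in log2 CPM, was 0.138 in DF1406, 0.137 in DF1102, 0.202 in DF1501 and 0.155 in JG207. Actin (MYCTH_2314852), a housekeeping gene, had 503 and 481 RPKM in DF1406, against 496 and 578 RPKM in JG207, a log2 fold change of -0.06 (adjusted p = 0.758).

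Beyond Mtxyl1, 1 gene of the oxo-reductive pathway, the xylulokinase gene, was called higher in DF1406. This gene, xkia (MYCTH_67060), had 215 and 238 RPKM in DF1406, against 80.9 and 91.9 RPKM in JG207. It was 2.73-fold higher (log2 FC 1.45, SE 0.18, adjusted p = 0.000428). The xylitol dehydrogenase gene xdh1 (MYCTH_2293953) had 826 and 918 RPKM in DF1406, against 515 and 510.1 RPKM in JG207. This difference of 0.83 on the log2 scale passed the p threshold (adjusted p = 0.0105) but was under a fold of 2, as was that of MYCTH_113236, another gene annotated as a d-xylose reductase, with 159.9 and 171 RPKM in DF1406, against 118 and 122 RPKM in JG207 (log2 FC 0.52, adjusted p = 0.00494). The 5 genes of d-xylose catabolism that the study names, Mtxyl1 and Mtxyd1 included, together took 1.03% and 0.96% of the counts in DF1406, against 0.319% and 0.325% in JG207. Without Mtxyd1 the 4 others took 0.194% and 0.214% in DF1406, against 0.269% and 0.281% in JG207, so that the rise of the sum is that of Mtxyd1. In DF1102, which carries no inserted copy of it, the 5 genes took 0.511% and 0.541% of the counts.

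**Figure D2:**
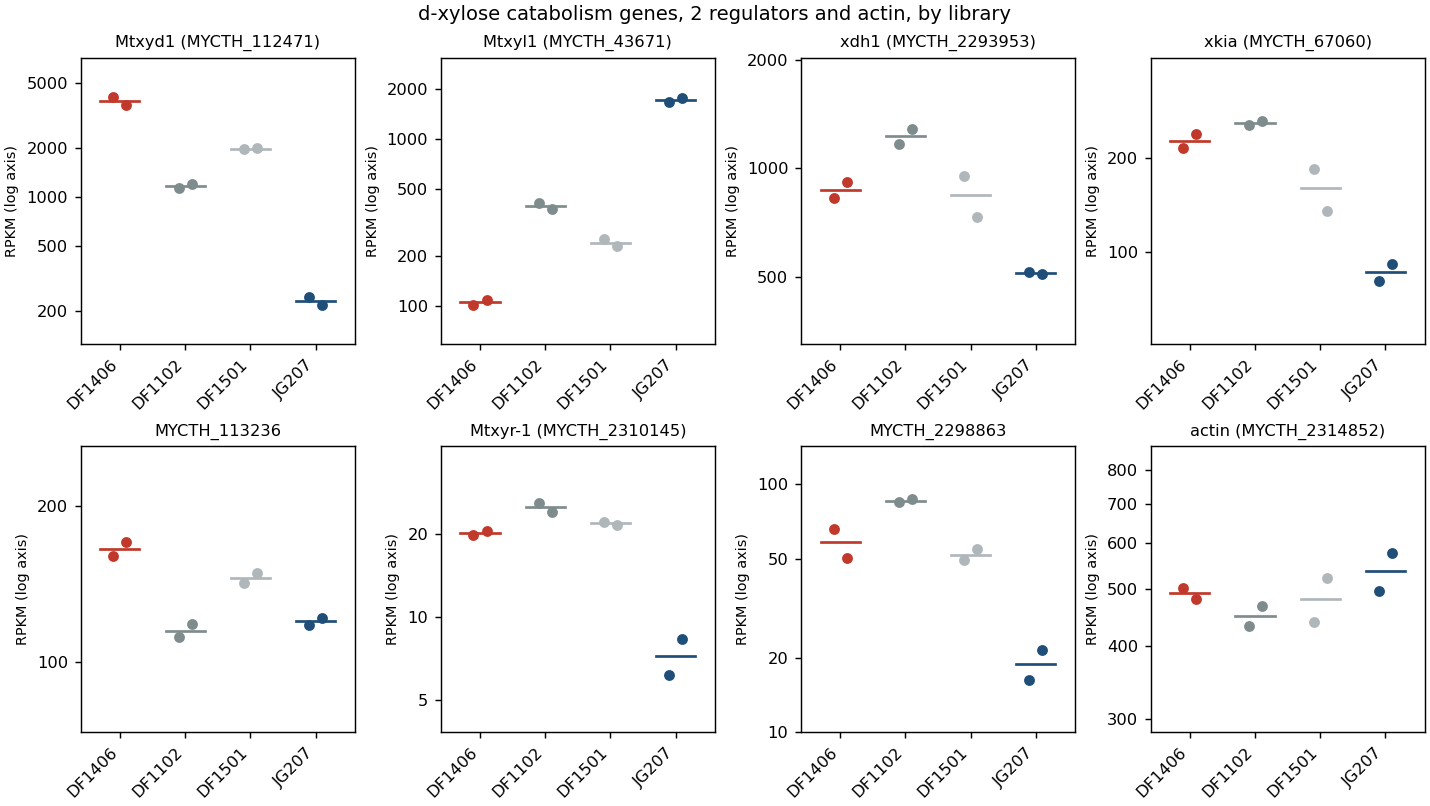
Level of 8 genes in RPKM (log axis) in each library (points) with the mean of the 2 libraries of a strain (line), for DF1406, DF1102, DF1501 and JG207. Mtxyd1 is highest and Mtxyl1 lowest in DF1406, xkia and Mtxyr-1 are higher in the 3 strains without Mtxyl1 than in JG207, and actin lies between 433 and 578 RPKM throughout.

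Regulators of plant cell wall degradation were higher as well. Mtxyr-1 (MYCTH_2310145), which encodes the xylanase regulator of the XlnR/XYR1 family, had 19.8 and 20.6 RPKM in DF1406, against 6.14 and 8.31 RPKM in JG207. The log2 fold change was 1.55 (SE 0.13, adjusted p = 5.2e-05). MYCTH_2298863 and MYCTH_2296492 are the genes clr-1 and clr-4, regulators of cellulase genes in fungi, but which ID belongs to which name is not settled by the sources used here, so both go by ID. MYCTH_2298863 had 66.1 and 50.6 RPKM in DF1406, against 16.3 and 21.4 RPKM in JG207 (log2 FC 1.69, adjusted p = 6.63e-05). Mtclr-2 (MYCTH_38704), which activates cellulase genes in Neurospora crassa, was expressed far less, with 4.48 and 3.23 RPKM in DF1406, against 1.70 and 1.73 RPKM in JG207, and the log2 fold change was 1.22 (adjusted p = 0.00143). In limma on log2(RPKM + 1) it was 0.83, under a fold of 2. MYCTH_2296492 had 67.8 and 58.5 RPKM in DF1406, against 38.4 and 44.5 RPKM in JG207, and its difference of 0.67 (adjusted p = 0.0021) was under a fold of 2. So 3 of the 4 listed regulators were called higher. The study shows these regulators, and the CAZyme and transporter genes that follow, as genes upregulated in these same libraries. That choice favours higher calls, so their counts are not independent evidence of a direction. Among 114 tested transcription factors taken by words in the descriptions, 8 or 7.02% were called higher and 1 or 0.877% lower, beside 7.13% and 4.01% of all genes. The largest fold of the 8 was that of MYCTH_2305522, a zinc cluster protein, with 60.3 and 58.4 RPKM in DF1406, against 9.70 and 10.9 RPKM in JG207 (log2 FC 2.59).

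Genes of carbohydrate-active enzymes, among them enzymes that degrade plant cell walls, made up some of the largest differences. The study's list holds genes shown as upregulated in these libraries, so its contrast with all tested genes measures no excess. It is not limited to plant cell walls. It also holds a trehalase gene (GH37), chitinase genes (GH18) and GH31 genes, and some of its genes return in later lists. Of 45 glycoside hydrolase (GH) genes of the study's list, 40 were called higher in DF1406 and 0 lower, with a median log2 fold change of 2.11, beside 7.13% of all tested genes and a median of -0.0475. They took 2.84% and 2.61% of the counts in DF1406, against 0.411% and 0.392% in JG207. All 8 listed genes of auxiliary activities (AA), oxidative enzymes that act beside the hydrolases, were also higher, with a median of 2.20. The listed genes were grouped by what their families are known to cut, and genes of these families outside the list were not examined. The median was 4.66 over 6 endo-xylanase genes (GH10 and GH11), all higher. It was 2.94 over 9 genes for the arabinose and glucuronic acid side chains of xylan (GH43, GH51, GH62, GH67 and GH115), 8 of them higher. For 4 cellulase genes (GH6, GH7 and GH12), all higher, it was 2.33. The 3 chitinase genes of GH18 were higher with a median of 1.37, and 19 of the 23 remaining GH genes were higher.

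The endo-xylanases had the largest folds of these groups. MYCTH_89603 (GH11, labelled Xyn1 or Xyl6) reached 11266 and 10759.6 RPKM in DF1406, against 318 and 266 RPKM in JG207. This endo-xylanase gene had one of the highest levels of all genes in DF1406, and its log2 fold change was 5.29 (SE 0.75, adjusted p = 0.000898). Its DF1501 libraries lay far apart, at 6520 and 1093 RPKM, and the SE carries that spread too. MYCTH_100068 (GH11, Xyl7) was almost silent in JG207, at 991 and 647 RPKM in DF1406, against 0.344 and 0.335 RPKM in JG207. The 28709 counts in DF1406 against 12 in JG207 gave a ratio of 2410 (exact 95% interval 1380 to 4670, counting error only), and the fitted log2 fold change was 11.26 (SE 1.36, adjusted p = 0.000388). A further GH11 gene, MYCTH_49824, had 499 and 309 RPKM in DF1406, against 5.95 and 5.53 RPKM in JG207 (log2 FC 6.19). Of the GH10 xylanases, MYCTH_112050 had 628 and 576 RPKM in DF1406, against 41.6 and 34.9 RPKM in JG207 (log2 FC 4.03). MYCTH_116553 was the GH10 gene with the highest level and had 1845 and 1696 RPKM in DF1406, against 271 and 240.5 RPKM in JG207 (log2 FC 2.84). In proportion, the DF1406 libraries themselves differed by more in MYCTH_100068 and MYCTH_49824 than in the others of these 5 xylanase genes.

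Genes for the side chains and for cellulose followed with smaller folds. MYCTH_96141 of GH67, the family of α-glucuronidases, had 303 and 306 RPKM in DF1406, against 25.5 and 23.5 RPKM in JG207 (log2 FC 3.69). MYCTH_98003 of GH62, the family of arabinofuranosidases, had 38.6 and 37.9 RPKM in DF1406, against 2.43 and 2.53 RPKM in JG207 (log2 FC 4.00). The GH43 gene MYCTH_2127683 was the side chain gene not called, at 0.18 on the log2 scale. MYCTH_109444 of GH12, a family of endoglucanases, had 1109.7 and 946 RPKM in DF1406, against 104 and 92.4 RPKM in JG207 (log2 FC 3.44). MYCTH_109566, a GH7 cellobiohydrolase with a cellulose-binding module, had 196 and 142 RPKM in DF1406, against 34.5 and 25.05 RPKM in JG207 (log2 FC 2.55, SE 0.28, adjusted p = 0.000249). The terminator of a cellobiohydrolase gene, Tcbh, is part of the xylX cassette of DF1406, and whether reads from the cassette add to the counts of MYCTH_109566 was not tested. Among the listed AA genes, the lytic polysaccharide monooxygenases of AA9 were all higher, 6 of 6, and AA9 genes outside the list were not examined. MYCTH_110651 (AA9) had 11.9 and 7.47 RPKM in DF1406, against 0.108 and 0.14 RPKM in JG207, with 542 counts in DF1406 against 7 in JG207, a ratio of 78.1 (37.6 to 195). MYCTH_112089 (AA9) rose by 3.30 on the log2 scale (adjusted p = 0.0149) on few counts, 68 in DF1406 against 7 in JG207, and the call was lost without DF1406 replicate 1 (2.57, adjusted p = 0.0986) and without JG207 replicate 2 (2.73, adjusted p = 0.0962). MYCTH_81925, which joins an AA8 and an AA3 domain as cellobiose dehydrogenases do, rose by 2.38, and MYCTH_2313229 of AA13, a family that acts on starch, rose by 2.29.

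Genes of sugar uptake were called higher as well. Of 19 listed transporter genes 16 (84.2%) were called higher and 0 lower, beside 7.13% and 4.01% of all tested genes. These too are genes the study shows as upregulated, so that contrast measures no excess. The median log2 fold change of the list was 2.29. Its genes took 1.10% and 0.899% of the counts in DF1406, against 0.248% and 0.233% in JG207. Among 28 tested sugar transporter genes found by words in the descriptions, 14 (50%) were higher and 0 lower, with a median of 1.51. This list shares members with the first, so it is no independent check. The transporter with the highest level, MYCTH_2308157, whose yeast match is a glucose sensor, had 2876 and 2299.5 RPKM in DF1406, against 759 and 648 RPKM in JG207 (log2 FC 1.93). MYCTH_114107, whose match is a glycerol symporter, had 1003 and 759.8 RPKM in DF1406, against 89.3 and 118 RPKM in JG207 (log2 FC 3.15, SE 0.20, adjusted p = 1.53e-05). MYCTH_84164, similar to hexose transporters, had 158 and 116 RPKM in DF1406, against 2.56 and 2.30 RPKM in JG207 (log2 FC 5.87, SE 0.31, adjusted p = 7.2e-06). This was the largest fold of the transporters, followed by MYCTH_108044, another match of a glucose sensor, with 13.8 and 6.87 RPKM in DF1406, against 0.177 and 0.459 RPKM in JG207 (log2 FC 5.06). The DF1406 libraries of MYCTH_108044 lay apart from each other, and both were above JG207. MYCTH_2307233 (log2 FC 2.78) and the galactose permease match MYCTH_108890 (log2 FC 2.55) were further hexose transporter genes called higher.

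Outside the listed enzymes, the largest rises included genes matched to enzymes of dihydroxyacetone and fatty acid metabolism and several genes without a description. Among called genes with at least 10 CPM in the higher strain, the largest fold after MYCTH_100068 belonged to MYCTH_2309487, matched to the multifunctional enzyme of peroxisomal β-oxidation, with 307 and 321 RPKM in DF1406, against 3.48 and 1.07 RPKM in JG207 (log2 FC 7.16, SE 0.76, adjusted p = 0.000195). MYCTH_40719, matched to dihydroxyacetone kinase, which makes dihydroxyacetone phosphate, had 965 and 1052 RPKM in DF1406, against 9.82 and 6.34 RPKM in JG207 (log2 FC 7.01, SE 0.36, adjusted p = 7.2e-06). Both genes were low in JG207. MYCTH_88807, a match of unknown function, had 2664 and 2281 RPKM in DF1406, against 40.7 and 18.7 RPKM in JG207 (log2 FC 6.42), and MYCTH_2066457, without a description, had 2097 and 2022 RPKM in DF1406, against 30.6 and 22.7 RPKM in JG207 (log2 FC 6.32). The remaining genes of the 10 largest rises, MYCTH_2308874, MYCTH_2129843, MYCTH_80233, MYCTH_2299856 and the AA9 gene MYCTH_110651, had log2 fold changes between 6.29 and 6.59 and reached at most 288 RPKM. Ranked by the gain in CPM, the first genes were among the most abundant of DF1406. MYCTH_2308875, without a description, had 14878 and 13487 RPKM in DF1406, against 319.5 and 159 RPKM in JG207 (log2 FC 5.93). MYCTH_2295902, matched to a yeast protein of unknown function that changes during alcoholic fermentation, had 13083 and 13172 RPKM in DF1406, against 240.2 and 181 RPKM in JG207 (log2 FC 6.01). The next gains were MYCTH_81258, without a description, with 11076 and 12679.7 RPKM in DF1406, against 583 and 423 RPKM in JG207 (log2 FC 4.61), and MYCTH_116237, matched to an aryl alcohol dehydrogenase, with 6587 and 6411 RPKM in DF1406, against 482 and 345 RPKM in JG207 (log2 FC 4.02), and the fifth was Mtxyd1.

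The largest falls were smaller and included uptake genes for copper and sulfate. Among called genes with at least 10 CPM in the higher strain, MYCTH_2307967 followed Mtxyl1. It has no description and had 40.9 and 24.3 RPKM in DF1406, against 347 and 268 RPKM in JG207 (log2 FC -3.19, SE 0.42, adjusted p = 0.000635). MYCTH_88187, matched to the high-affinity copper transporter of the plasma membrane, had 37.3 and 41.8 RPKM in DF1406, against 377 and 334 RPKM in JG207 (log2 FC -3.11, SE 0.40, adjusted p = 0.000518). MYCTH_107763 had 0 counts in DF1406 against 63 in JG207, a ratio of at most 0.0608 by the exact 95% interval, which covers counting error only, and it was singled out after its values were seen. MYCTH_115983, without a description, fell to 338 and 314 RPKM in DF1406, against 1874 and 2019 RPKM in JG207 (log2 FC -2.52). The other 6 of the 10 were between -2.89 and -2.54, among them MYCTH_61507, matched to a vacuolar transporter of glutathione conjugates, and MYCTH_2310241, matched to a high-affinity sulfate permease, with 0.817 and 0.919 RPKM in DF1406, against 5.74 and 5.88 RPKM in JG207. Of 29 tested genes of iron, copper and zinc transport, 0 were higher and 5 lower, 17.2% beside 4.01% of all genes. They include a match of the high-affinity zinc transporter, MYCTH_2307966 (log2 FC -2.18), and a match of a ferric reductase, MYCTH_2306028 (log2 FC -1.12), whose call was lost without JG207 replicate 1 (-0.90, adjusted p = 0.00342). The call of MYCTH_2300167, matched to the oxidase of high-affinity iron uptake (log2 FC -1.65), was lost without DF1406 replicate 1 (-1.38, adjusted p = 0.0652) and without JG207 replicate 1 (-1.30, adjusted p = 0.0518).

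Genes of glycolysis and gluconeogenesis were called in both directions. Glycolysis breaks glucose down to pyruvate, and gluconeogenesis runs the reversible steps back with its own enzymes at the others. Of the 19 genes of the list 3 (15.8%) were called higher and 4 (21.1%) lower, beside 7.13% and 4.01% of all tested genes. The median log2 fold change of the list was -0.437. Its genes took 0.89% and 0.945% of the counts in DF1406, against 2.10% and 1.88% in JG207. The 4 lower genes encode the consecutive steps from glyceraldehyde 3-phosphate to phosphoenolpyruvate. The glyceraldehyde-3-phosphate dehydrogenase gene (MYCTH_2311855) had 2082 and 2398 RPKM in DF1406, against 7209 and 6259.6 RPKM in JG207, which was 2.89-fold lower (log2 FC -1.53, SE 0.22, adjusted p = 0.000912). It also lost the most CPM of all called genes. The phosphoglycerate kinase gene (MYCTH_2316240), the next step, had 667 and 656 RPKM in DF1406, against 2243 and 1942 RPKM in JG207 (log2 FC -1.61, SE 0.22, adjusted p = 0.000805). Enolase (MYCTH_2295989) had 625 and 602 RPKM in DF1406, against 1331 and 1279 RPKM in JG207, a log2 fold change of -1.03, just past a fold of 2, and the call was lost without JG207 replicate 1 (-0.92, adjusted p = 0.0208) and in a fit of only the 4 libraries compared. Phosphoglycerate mutase (MYCTH_2315941) was at -1.03, and lost its call without DF1406 replicate 1 (-0.94, adjusted p = 0.00886) and without JG207 replicate 2 (-0.97, adjusted p = 0.00482) and in that fit of 4 libraries. In all 4 of these genes the libraries of the strains did not overlap, as in every called gene.

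At the aldolase and triosephosphate isomerase steps, the 2 genes of each enzyme differed in direction. Of the triosephosphate isomerase genes, MYCTH_39694 had 109 and 121 RPKM in DF1406, against 12.1 and 9.15 RPKM in JG207 (log2 FC 3.49, SE 0.17, adjusted p = 6.88e-06), while MYCTH_2304931, the copy with the higher level in JG207, had 208 and 162 RPKM in DF1406, against 380.0 and 383 RPKM in JG207 (log2 FC -0.99, adjusted p = 0.00246). This difference was just short of a fold of 2, and was called without DF1406 replicate 1 (-1.14, adjusted p = 0.00947) and without JG207 replicate 2 (-1.04, adjusted p = 0.0111) and with library size alone as the scale (-1.05). Of the fructose-bisphosphate aldolase genes, MYCTH_2298452 had 489.8 and 540.1 RPKM in DF1406, against 236 and 179.8 RPKM in JG207 (log2 FC 1.36, adjusted p = 0.00121), while MYCTH_2300033 had 224 and 240.3 RPKM in DF1406, against 413 and 422 RPKM in JG207 (log2 FC -0.79, adjusted p = 0.0017, under a fold of 2). The aldolase gene that was lower of the pair in JG207 was thus the higher one in DF1406, while MYCTH_2304931 kept the higher RPKM of the isomerase pair in both strains. The gluconeogenic fructose-1,6-bisphosphatase gene fbp1 (MYCTH_2306943) had 69.3 and 85.8 RPKM in DF1406, against 44.3 and 28.0 RPKM in JG207 (log2 FC 1.15, adjusted p = 0.0272), a call lost without DF1406 replicate 1 (1.33, adjusted p = 0.0536), without DF1406 replicate 2 (0.99, adjusted p = 0.13) and without JG207 replicate 2 (0.81, adjusted p = 0.16). The gene of phosphoenolpyruvate carboxykinase, pck (MYCTH_2315623), which opens gluconeogenesis, had 308 and 370.1 RPKM in DF1406, against 249 and 133 RPKM in JG207. Its log2 fold change of 0.87 did not pass the test (SE 0.38, adjusted p = 0.104), the JG207 libraries lying far apart, and it was called without JG207 replicate 1 (1.49, adjusted p = 0.0365).

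**Figure D3:**
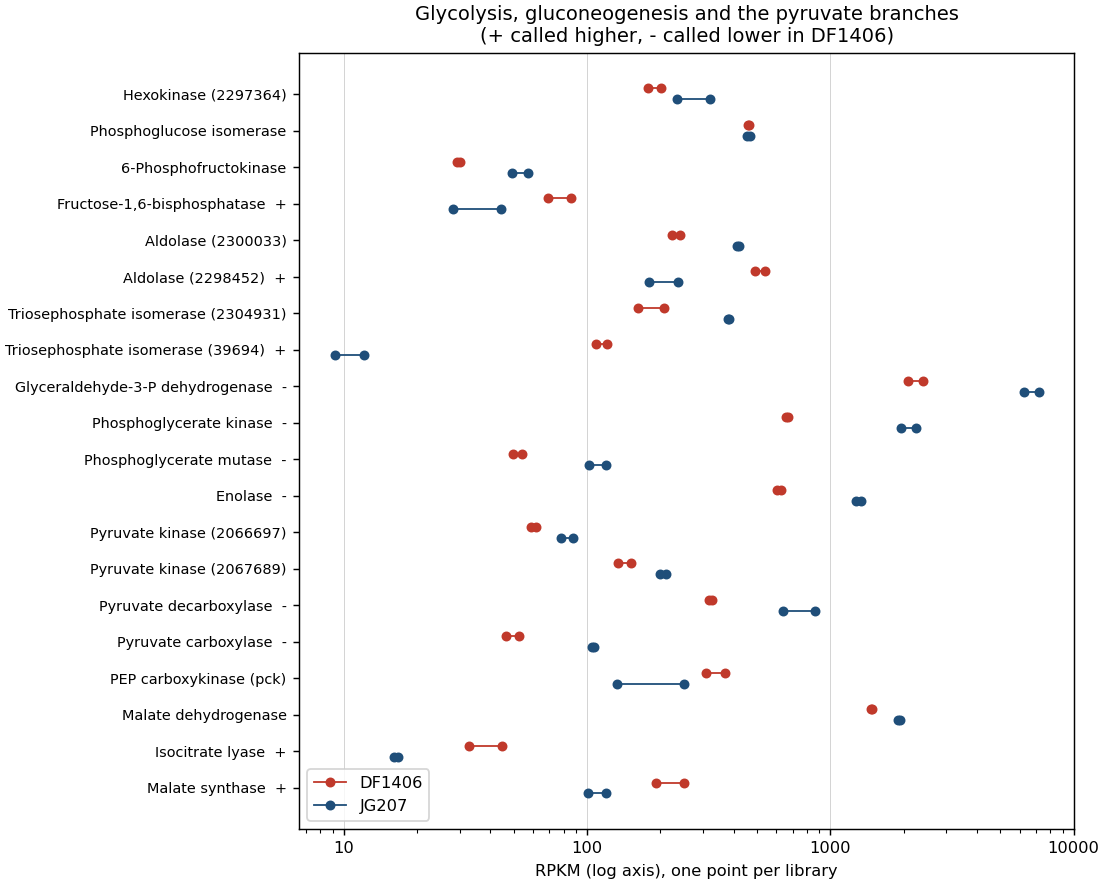
Level in RPKM (log axis) of genes of glycolysis, gluconeogenesis and the pyruvate branches in each library of DF1406 (red) and JG207 (blue), with a line joining the 2 libraries of a strain, plus for genes called higher in DF1406 and minus for those called lower. The steps from glyceraldehyde-3-phosphate dehydrogenase to enolase are lower in DF1406, while 1 of the 2 aldolase genes and 1 of the 2 triosephosphate isomerase genes are higher.

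Of 7 genes of other carbon metabolism in the study's list 2 were called higher and 3 lower, with a median of 0.444, beside 7.13% and 4.01% of all genes. The higher genes encode the enzymes of the glyoxylate cycle, which makes malate without loss of carbon dioxide, and the lower ones make or use pyruvate. The pyruvate decarboxylase gene (MYCTH_112121) had 325 and 317 RPKM in DF1406, against 868 and 639 RPKM in JG207 (log2 FC -1.18, SE 0.25, adjusted p = 0.00689), and its call was lost without DF1406 replicate 1 (-1.16, adjusted p = 0.0522), without DF1406 replicate 2 (-1.17, adjusted p = 0.0546) and without JG207 replicate 1 (-0.85, adjusted p = 0.0511). The native pyruvate carboxylase gene (MYCTH_2295692), which makes oxaloacetate, had 46.3 and 52.6 RPKM in DF1406, against 104 and 107 RPKM in JG207 (log2 FC -1.03), a call lost without DF1406 replicate 1 (-0.91, adjusted p = 0.0201) and without JG207 replicate 1 (-0.97, adjusted p = 0.0112). The genes that the study lists as lactate dehydrogenases but whose yeast matches are malate dehydrogenases, MYCTH_38939 and MYCTH_110317, were at -1.87 and -1.52 on the log2 scale, and the second lost its call without DF1406 replicate 2 (-1.36, adjusted p = 0.0635) and without JG207 replicate 1 (-1.09, adjusted p = 0.0518). A malic enzyme gene of low level, MYCTH_2307908, whose product makes pyruvate from malate, had 2.87 and 1.92 RPKM in DF1406, against 7.82 and 7.33 RPKM in JG207 (log2 FC -1.61). Of the genes listed as isocitrate lyases, MYCTH_110871 had 32.7 and 44.7 RPKM in DF1406, against 16.7 and 16.0 RPKM in JG207 (log2 FC 1.30, SE 0.26, adjusted p = 0.00511), and MYCTH_2311001, whose yeast match is a 2-methylisocitrate lyase, was not called (133 and 129 RPKM in DF1406, against 102 and 97.8 RPKM in JG207, log2 FC 0.45, adjusted p = 0.0901). The other malic enzyme gene, MYCTH_2302433, was under a fold of 2 (log2 FC 0.44, adjusted p = 0.028). The malate synthase gene (MYCTH_2298071), the other enzyme of that cycle, had 192 and 250.2 RPKM in DF1406, against 119 and 101 RPKM in JG207 (log2 FC 1.06, adjusted p = 0.018), and its call was lost without DF1406 replicate 2 (0.86, adjusted p = 0.111) and without JG207 replicate 2 (0.90, adjusted p = 0.112). The gapdh gene MYCTH_2311855 and the elongation factor 1α gene MYCTH_2298136 correspond by name to elements of the expression cassettes, and the second had 2589.5 and 2622 RPKM in DF1406, against 2790.2 and 3369 RPKM in JG207 (log2 FC -0.18, adjusted p = 0.508). Whether cassette reads add to the counts of these native genes was not tested.

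In the tricarboxylic acid cycle, which α-ketoglutarate enters, 0 of 20 genes were called higher and 0 lower at a fold of 2. Of all tested genes 7.13% and 4.01% were, and at those shares a list of 20 holds few calls. The median was -0.228, with 17 of 20 genes below 0. By adjusted p alone 0 were higher and 6 lower, beside 17.2% and 19.7% of all tested genes. The largest fold was that of an aconitase gene, MYCTH_2302623, with 30.7 and 41.7 RPKM in DF1406, against 67.5 and 74.1 RPKM in JG207 (log2 FC -0.90, adjusted p = 0.00421), which was called without DF1406 replicate 2 (-1.14, adjusted p = 0.00488). The malate dehydrogenase gene MYCTH_2305575 had 1474 and 1484 RPKM in DF1406, against 1929 and 1900.4 RPKM in JG207 (log2 FC -0.31, adjusted p = 0.185). None of the 7 genes of the pentose phosphate pathway was called either, a list so short that the same shares give few calls or none. Their median was 0.0296, or -0.0301 with library size alone as the scale. Of these, the glucose-6-phosphate dehydrogenase gene MYCTH_2074905, the entry of the oxidative branch, had 250.1 and 239 RPKM in DF1406, against 139 and 162 RPKM in JG207 (log2 FC 0.76, adjusted p = 0.00199, under a fold of 2). Transketolase (MYCTH_2300643) was at 0.29 (adjusted p = 0.214) and transaldolase (MYCTH_2297820) at -0.37 (adjusted p = 0.0941), neither past the test.

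Genes of stored carbohydrate, glycerol and aldehydes held a few large single changes. The trehalase gene MYCTH_75490, which splits trehalose into glucose, had 413 and 343 RPKM in DF1406, against 39.0 and 47.9 RPKM in JG207 (log2 FC 3.18, SE 0.17, adjusted p = 7.2e-06). The glycerol kinase gene MYCTH_53508 had 29.8 and 25.2 RPKM in DF1406, against 6.26 and 7.89 RPKM in JG207 (log2 FC 2.02). The glycerol-3-phosphate phosphatase gene MYCTH_2296323, which makes glycerol, rose too, by 1.17. Of the 15 storage genes these 3 (20%) were higher and 1 (6.67%) lower, beside 7.13% and 4.01% of all tested genes. The lower one, the glycogen phosphorylase gene MYCTH_2309843, had a log2 FC of -1.12. Its call was lost without DF1406 replicate 2 (-0.87) and without JG207 replicate 1 (-0.84). Among 9 alcohol, aldehyde and lactate dehydrogenase genes 3 (33.3%) were higher and 2 (22.2%) lower, beside the same shares of all genes. An aldehyde dehydrogenase gene, MYCTH_2140820, had 717 and 713 RPKM in DF1406, against 145 and 122 RPKM in JG207 (log2 FC 2.47, SE 0.30, adjusted p = 0.000396). The alcohol dehydrogenase genes ADH6 (MYCTH_84302) and ADH4 (MYCTH_2306298) rose by 2.44 and 1.90.

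Genes that make glutamate and glutamine from ammonia, with α-ketoglutarate as the carbon skeleton, were lower in DF1406 than in JG207. Values of DF1102, which carries none of the added pathway genes, are given beside some of them. The NADP-dependent glutamate dehydrogenase gene gdh1 (MYCTH_2090554), which adds ammonia to α-ketoglutarate, had 17.1 and 23.7 RPKM in DF1406, against 121 and 113 RPKM in JG207, 5.51-fold lower (log2 FC -2.46, SE 0.19, adjusted p = 3.74e-05). In DF1102 gdh1 had 19.4 and 15.7 RPKM (DF1406 over DF1102 log2 FC 0.28, adjusted p = 0.302). The glutamine synthetase gene MYCTH_63965 had 44.9 and 67.4 RPKM in DF1406, against 193 and 159.7 RPKM in JG207 (log2 FC -1.60, SE 0.20, adjusted p = 0.000518). In DF1102 it had 55.5 and 50.5 RPKM (DF1406 over DF1102 log2 FC 0.15, adjusted p = 0.624). The glutamate synthase gene glt1 (MYCTH_2312662) had 16.0 and 24.4 RPKM in DF1406, against 54.8 and 46.8 RPKM in JG207 (log2 FC -1.27), a call lost without DF1406 replicate 1 (-0.97, adjusted p = 0.0139). In contrast the NAD-dependent glutamate dehydrogenase gene gdh2 (MYCTH_2304566), which releases ammonia and α-ketoglutarate from glutamate, had 151 and 131 RPKM in DF1406, against 51.2 and 55.0 RPKM in JG207 (log2 FC 1.47, SE 0.17, adjusted p = 0.000281). In DF1102 gdh2 had 208 and 210 RPKM (DF1406 over DF1102 log2 FC -0.51, adjusted p = 0.0549). The proline synthesis gene pro2 (MYCTH_2300236) was higher than in JG207 by 1.44. These 5 genes were the only calls among 41 amino acid synthesis genes of the study's list, whose median was -0.351. The 2 higher (4.88%) and 3 lower (7.32%) stand beside 7.13% and 4.01% of all tested genes. Of 29 permeases for amino acids and nitrogen compounds 2 were higher and 2 lower, 6.9% each, beside the same shares of all genes. The arginine permease match MYCTH_2312467 had 16.1 and 21.6 RPKM in DF1406, against 81.4 and 74.2 RPKM in JG207 (log2 FC -1.99).

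Of 78 tested peroxisomal genes 17 or 21.8% were called higher, beside 7.13% of all genes, and 2 or 2.56% lower, beside 4.01%. Peroxisomes hold the β-oxidation of fatty acids and part of the glyoxylate cycle in filamentous fungi. Besides MYCTH_2309487, a low gene matched to 2,4-dienoyl-CoA reductase, MYCTH_2127410, had 129 counts in DF1406 against 2 in JG207, a ratio of 65.0 (17.6 to 543). MYCTH_2308261, another match of the multifunctional β-oxidation enzyme, had 38.2 and 33.3 RPKM in DF1406, against 3.31 and 2.85 RPKM in JG207 (log2 FC 3.59). MYCTH_2294358, matched to 2,4-dienoyl-CoA reductase, had 245 and 241 RPKM in DF1406, against 39.3 and 34.9 RPKM in JG207 (log2 FC 2.77), and MYCTH_2297791, matched to a peroxisomal AMP-binding protein, had 99.4 and 107 RPKM in DF1406, against 24.7 and 28.1 RPKM in JG207 (log2 FC 2.03). Several of these genes share a yeast match, so the match names a family. Of the 2 lower genes, MYCTH_2064803, also matched to 2,4-dienoyl-CoA reductase, had 5 counts in DF1406 against 40 in JG207. The median of the whole list was 0.308, and 59 of 78 genes were above 0.

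Synthesis of sterols and fatty acids was mixed, with 5 of 71 genes or 7.04% higher and 6 or 8.45% lower, beside 7.13% and 4.01% of all genes. The 4 lower genes described next match enzymes of these pathways. The Δ9 desaturase match MYCTH_109620, the enzyme of monounsaturated fatty acids, had 69.6 and 75.2 RPKM in DF1406, against 359 and 313 RPKM in JG207 (log2 FC -2.16, SE 0.18, adjusted p = 5.12e-05). Lanosterol 14α-demethylase (MYCTH_110187), a cytochrome P450 of ergosterol synthesis, had 163 and 145 RPKM in DF1406, against 718 and 588 RPKM in JG207 (log2 FC -2.03, SE 0.26, adjusted p = 0.00054). HMG-CoA synthase (MYCTH_111934), an early enzyme of the mevalonate route, had 53.2 and 60.6 RPKM in DF1406, against 169 and 182 RPKM in JG207 (log2 FC -1.56). The sterol methyltransferase match MYCTH_110670 was at -1.15, a call lost without JG207 replicate 2 (-0.93, adjusted p = 0.032). Of the 5 higher genes the largest, MYCTH_108317 and MYCTH_55132, both matched to a mitochondrial β-ketoacyl synthase, reached at most 1.64 RPKM.

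Genes of the translation machinery differed by small steps. Of 58 cytosolic ribosomal protein genes 0 were higher and 1 lower at a fold of 2, beside 7.13% and 4.01% of all tested genes. Still, 57 of 58 had a log2 fold change below 0, and the median was -0.486. By adjusted p alone 23 were lower, beside 19.7% of all tested genes. The called gene, MYCTH_2300549, a match of the large subunit protein L22, had 230.2 and 227 RPKM in DF1406, against 448 and 508 RPKM in JG207 (log2 FC -1.003). It lies at the fold threshold and was lost with DESeq2 (-0.98) and without DF1406 replicate 1 (-0.97, adjusted p = 0.0548), without DF1406 replicate 2 (-0.99, adjusted p = 0.0543) and without JG207 replicate 2 (-0.97, adjusted p = 0.0393). These genes took 3.43% and 3.25% of the counts in DF1406, against 4.58% and 4.99% in JG207. Mitochondrial ribosomal proteins (61 genes, median -0.256), ribosome biogenesis (179 genes, median -0.226) and the respiratory chain with ATP synthase (28 genes, median -0.301) had at most 1 call in each direction. Of 27 translation factors 1 was lower, the eIF-5A match MYCTH_2297659, with 3732 and 3363 RPKM in DF1406, against 7225 and 8389 RPKM in JG207 (log2 FC -1.08), a call lost without DF1406 replicate 1 (-1.11, adjusted p = 0.0627) and without DF1406 replicate 2 (-1.002, adjusted p = 0.0876). The other genes with the largest loss of CPM were MYCTH_2308313, MYCTH_112227 and MYCTH_77206, none with a description. MYCTH_2308313 had 2976 and 3687 RPKM in DF1406, against 10825 and 9073 RPKM in JG207 (log2 FC -1.52) and lost its call without DF1406 replicate 1 (-1.34, adjusted p = 0.0546). MYCTH_112227 (log2 FC -1.53) lost it without DF1406 replicate 1 (-1.46, adjusted p = 0.0602), without DF1406 replicate 2 (-1.58, adjusted p = 0.0503) and without JG207 replicate 1 (-0.95, adjusted p = 0.0454), and MYCTH_77206 (log2 FC -1.45) without DF1406 replicate 1 (-1.51, adjusted p = 0.0661), without DF1406 replicate 2 (-1.35, adjusted p = 0.0911) and without JG207 replicate 1 (-1.004, adjusted p = 0.0879).

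Of 66 DNA replication genes 0 were called higher and 4 or 6.06% lower, beside 7.13% and 4.01% of all genes. By adjusted p alone 3 were higher and 36 lower, beside 17.2% and 19.7% of all genes, and the median was -0.468. The small subunit of ribonucleotide reductase (MYCTH_68292), which makes deoxyribonucleotides, had 39.2 and 32.5 RPKM in DF1406, against 70.1 and 92.6 RPKM in JG207 (log2 FC -1.12), a call lost without DF1406 replicate 2 (-0.99, adjusted p = 0.0385) and without JG207 replicate 2 (-0.97, adjusted p = 0.0258). Among 50 genes of purine, pyrimidine and one-carbon metabolism 0 were higher and 4 or 8% lower, beside 7.13% and 4.01%, with a median of -0.365. The methylenetetrahydrofolate dehydrogenase match MYCTH_2296847 had 31.1 and 42.3 RPKM in DF1406, against 98.5 and 106 RPKM in JG207 (log2 FC -1.41, SE 0.18, adjusted p = 0.000563). The first enzyme of pyrimidine synthesis (MYCTH_2299023) was at -1.31 and methionine synthase (MYCTH_2305043) at -1.15. No call was made among 72 chaperone genes (median 0.00688, or -0.0536 with library size alone) or 36 proteasome genes (median 0.0362, or -0.0264 with library size alone), where by adjusted p alone 6 chaperone genes were higher and 6 lower, and 2 and 0 proteasome genes. Among 84 cell wall genes 10 or 11.9% were higher and 4 or 4.76% lower, beside 7.13% and 4.01%. The largest rise was that of MYCTH_2300079, a gene of family GH31 (log2 FC 3.43). MYCTH_111035, a metalloprotease match of low level, was at 2.16, a call lost without DF1406 replicate 1 (1.97, adjusted p = 0.107), without DF1406 replicate 2 (2.36, adjusted p = 0.0588) and without JG207 replicate 1 (1.53, adjusted p = 0.12). The mannosidase matches, also of low level, were MYCTH_2298086 (log2 FC 1.62), which was at 0.45 and not called in limma on log2(RPKM + 1), and MYCTH_104570 (log2 FC -1.74), which was at -0.86 there and lost its call without DF1406 replicate 2 (-1.56, adjusted p = 0.0533). Among 43 genes against oxidative stress 2 or 4.65% were higher and 3 or 6.98% lower. The γ-glutamylcysteine synthetase gene MYCTH_2124996, the first step of glutathione synthesis, had 98.1 and 99.4 RPKM in DF1406, against 34.1 and 37.7 RPKM in JG207 (log2 FC 1.52), while a thioredoxin reductase match of low level, MYCTH_112714, had 12 counts in DF1406 against 115 in JG207. Aminoacyl-tRNA synthetases gave 1 call in 34, the aspartyl-tRNA synthetase match MYCTH_59106 (log2 FC 1.64), which was lost without DF1406 replicate 2 (1.35, adjusted p = 0.09) and without JG207 replicate 2 (1.44, adjusted p = 0.0972).

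**Figure D4:**
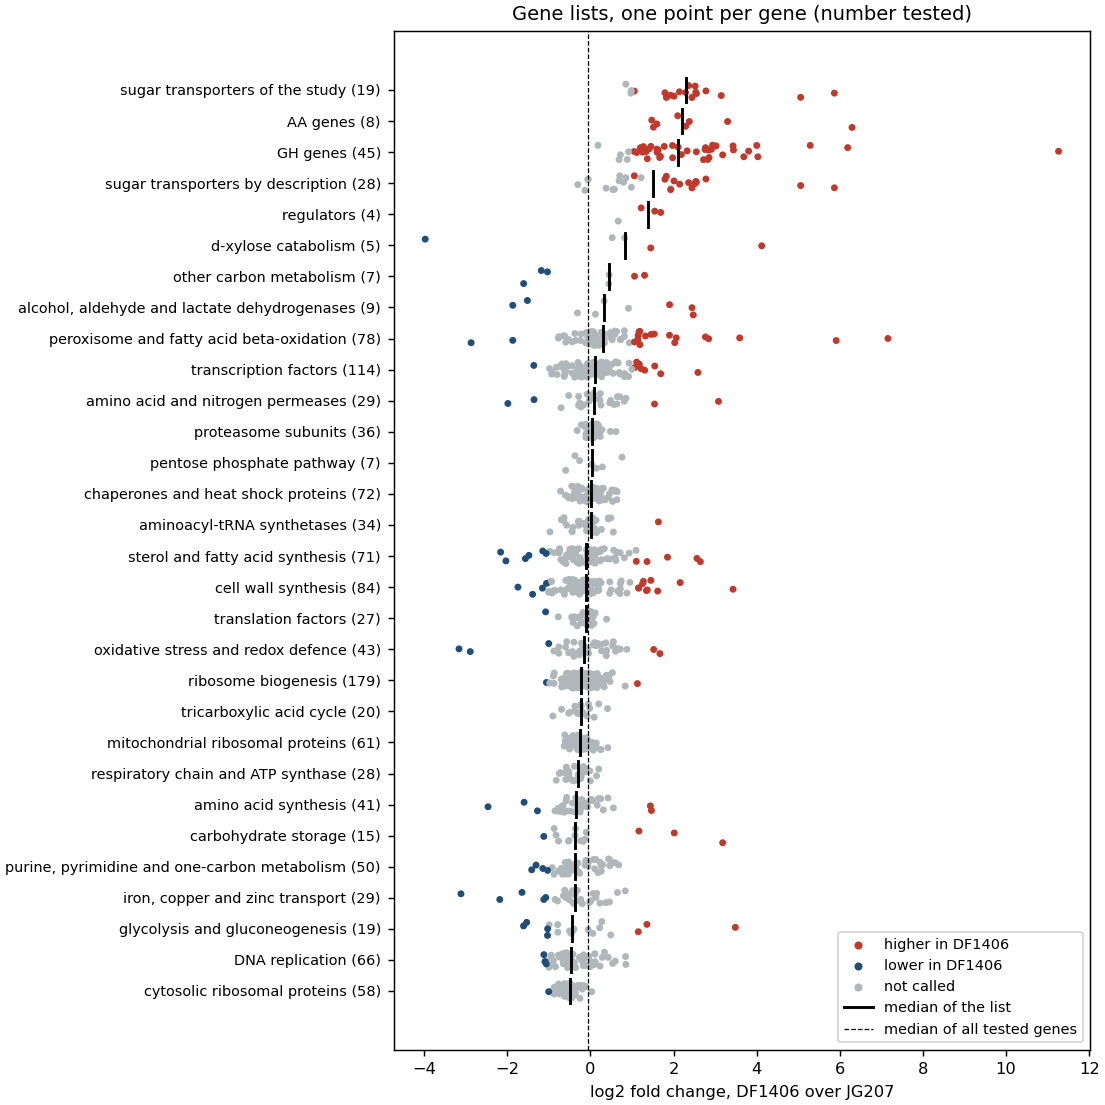
Log2 fold change, DF1406 over JG207, of every tested gene of each list (points, with the number tested in brackets), the median of the list (short black line) and the median of all tested genes (dashed line); red genes were called higher and blue ones lower in DF1406. The study's lists of transporters and of GH and AA genes, shown there as upregulated, lie to the right with medians of 2.29, 2.11 and 2.20. Cytosolic ribosomal proteins lie lowest with a median of -0.486.

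DF1406 was also tested against DF1102, which lacks Mtxyl1 as well and carries none of the added genes. Whether both strains hold the same deletion allele is not given in the sources used here. By the same rule 187 genes, 2.24%, were higher in DF1406 than in DF1102 and 81 genes, 0.972%, were lower, 268 in all. The total was 172 without DF1406 replicate 2, 109 without DF1102 replicate 1 and 160 without DF1102 replicate 2. Both comparisons share the DF1406 libraries, so their values are given side by side only. Of the GH genes 2 of 45 were higher and 1 lower than in DF1102, with a median of -0.0138 (0.000616 with RLE factors), where the median over JG207 was 2.11. For the listed sugar transporters the medians were -0.144 over DF1102 and 2.29 over JG207. The cytosolic ribosomal proteins had medians of 0.676 over DF1102, with all 58 genes above 0, and -0.486 over JG207. For amino acid synthesis they were 0.691 over DF1102, with 7 of 41 genes higher, and -0.351 over JG207. Peroxisomal genes had a median of -0.141 over DF1102, with 1 called in each direction, and 0.308 over JG207. Glycolysis had 0.349 over DF1102 and -0.437 over JG207, and the respiratory chain 0.579 over DF1102 and -0.301 over JG207.

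Of the 594 genes higher than in JG207, 24 were also called higher than in DF1102 and 20 lower. Of the 334 genes lower than in JG207, 7 were also called lower than in DF1102 and 57 higher. The rest were not called against DF1102. Values of some single genes follow. MYCTH_100068 (GH11) had 991 and 647 RPKM in DF1406, 918 and 733 RPKM in DF1102 and 0.344 and 0.335 RPKM in JG207, and its log2 fold change over DF1102 was 0.05 (SE 0.77, adjusted p = 0.972). The enolase gene MYCTH_2295989 had 625 and 602 RPKM in DF1406, 237 and 237 RPKM in DF1102 and 1331 and 1279 RPKM in JG207, so that DF1406 was higher than DF1102 by 1.43 (SE 0.18, adjusted p = 0.00264). The desaturase match MYCTH_109620 had 69.6 and 75.2 RPKM in DF1406, 17.3 and 16.1 RPKM in DF1102 and 359 and 313 RPKM in JG207, a difference over DF1102 of 2.18 (SE 0.18, adjusted p = 0.000587). In enolase and the desaturase DF1406 thus lay between DF1102 and JG207. HMG-CoA synthase (MYCTH_111934) was higher than in DF1102 by 1.41, the demethylase MYCTH_110187 by 1.14 and the aconitase gene MYCTH_2302623 by 1.28 on the log2 scale. The cellobiohydrolase gene MYCTH_109566 was higher as well, at 196 and 142 RPKM in DF1406 against 87.6 and 78.0 RPKM in DF1102 (log2 FC 1.09, SE 0.27, adjusted p = 0.0226). By contrast ADH4 (MYCTH_2306298) was lower than in DF1102, at 32.1 and 32.0 RPKM in DF1406 against 64.5 and 76.0 RPKM in DF1102 (log2 FC -1.07).

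Few genes set DF1406 apart from all 3 other strains. Higher against JG207, DF1102 and DF1501 at once were 7 genes, 0.084% of those tested, and lower were 3, 0.036%. Mtxyd1 was one of the 7, with 4071 and 3639 RPKM in DF1406, 1137 and 1194 RPKM in DF1102, 1947 and 1982 RPKM in DF1501 and 244 and 216 RPKM in JG207. Its log2 fold change was 1.79 (SE 0.20, adjusted p = 0.00161) over DF1102 and 1.04 (SE 0.20, adjusted p = 0.0234) over DF1501. Mtxyd1 left the 7 with library size alone, in limma, and when any DF1406 or DF1102 library was left out. MYCTH_2300079, a GH31 gene of the study's list, had 157 and 107 RPKM in DF1406, 39.4 and 32.1 RPKM in DF1102, 48.0 and 46.9 RPKM in DF1501 and 13.7 and 11.7 RPKM in JG207. It was thus above every other library, by 3.43 over JG207, 1.95 over DF1102 and 1.54 over DF1501. MYCTH_2313112, without a description, had 457 counts in DF1406 against 6 in JG207, a ratio of 76.8 (35.0 to 210), and its levels were 10.5 and 8.07 RPKM in DF1406, 1.94 and 2.24 RPKM in DF1102 and 3.03 and 0.988 RPKM in DF1501. The other higher genes were MYCTH_69953, MYCTH_2060683, MYCTH_2055951 and MYCTH_2308621, the last a match of a multidrug antiporter, with log2 fold changes over JG207 of 2.50, 3.34, 1.32 and 1.26. MYCTH_2308621 lost its call against JG207 without DF1406 replicate 2 (0.86, adjusted p = 0.0412).

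Lower in DF1406 than in each other strain was first Mtxyl1, at 102 and 109 RPKM in DF1406, 412 and 383 RPKM in DF1102, 252 and 228 RPKM in DF1501 and 1676 and 1773 RPKM in JG207. The 3 strains without the gene therefore differed in the reads counted there, by -1.85 (SE 0.14, adjusted p = 0.000565) over DF1102 and -1.12 (SE 0.14, adjusted p = 0.00747) over DF1501. MYCTH_2300336, of unknown function, had 39.4 and 36.2 RPKM in DF1406, 89.9 and 112 RPKM in DF1102, 80.2 and 96.7 RPKM in DF1501 and 135 and 106 RPKM in JG207, so that its libraries in DF1406 lay below all others. MYCTH_2304973, matched to a sterol glucosyltransferase, stayed under 1 RPKM in DF1406, at 0.362 and 0.44 RPKM, against 1.55 and 1.04 RPKM in DF1102, a mean of 1.54 RPKM in DF1501 and 2.26 and 1.45 RPKM in JG207. These counts changed with single libraries. Without DF1406 replicate 1 they were 1 higher (MYCTH_2308621) and 0 lower, and without DF1406 replicate 2 they were 1 higher (MYCTH_2300079) and 0 lower, while without either JG207 library 6 or 7 were higher and 3 lower. Without DF1102 replicate 1 they were 1 higher (MYCTH_2300079) and 2 lower, without DF1102 replicate 2 they were 3 and 2, without DF1501 replicate 1 they were 17 and 4, and without DF1501 replicate 2 they were 4 and 2.

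**Figure D5:**
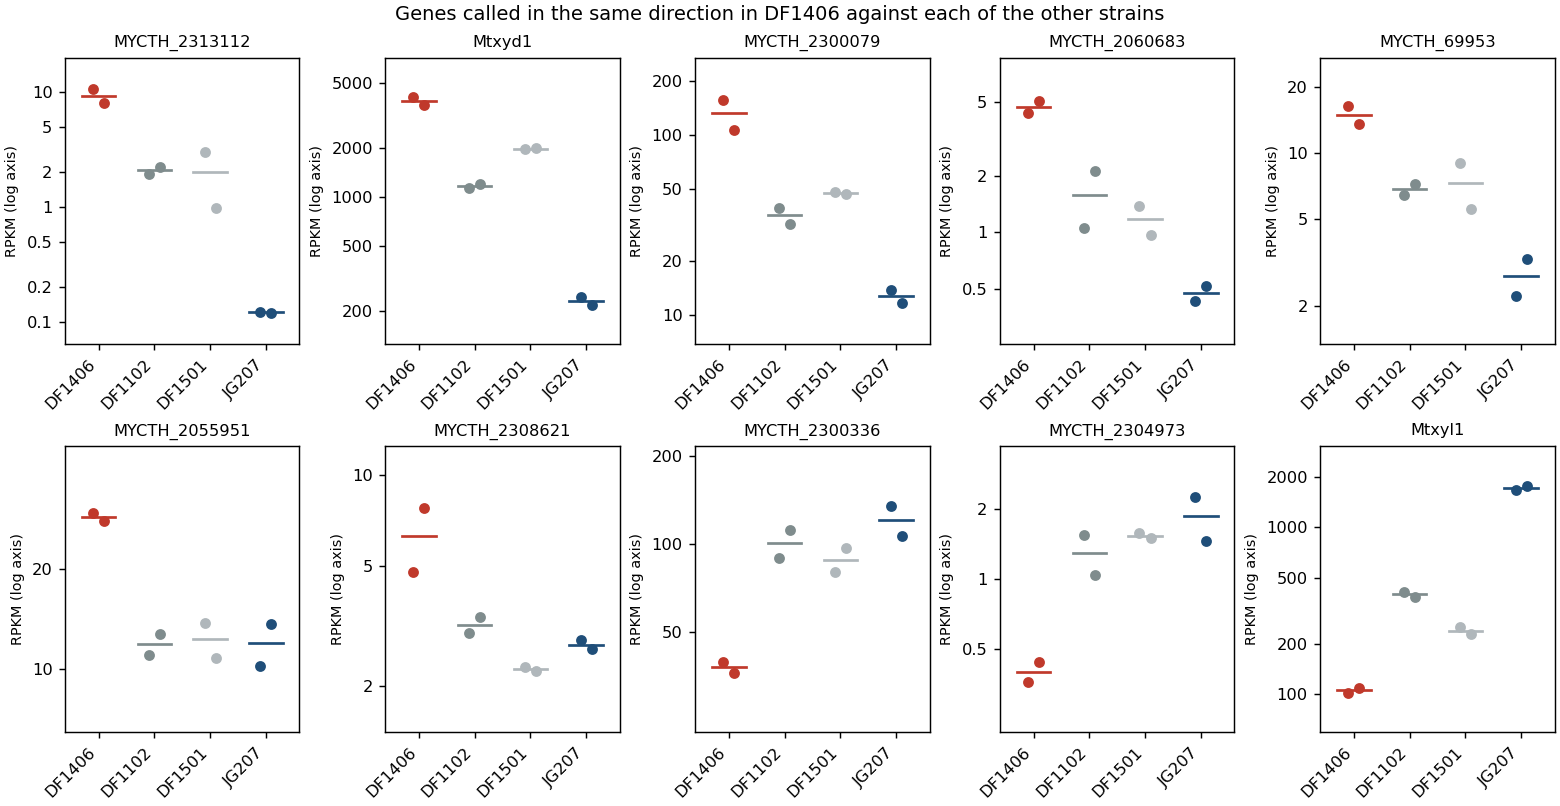
Level in RPKM (log axis) of the 10 genes called in the same direction in DF1406 against each of the other strains, one point per library with the mean of the strain as a line, for DF1406, DF1102, DF1501 and JG207. In the 7 higher genes both DF1406 libraries lie above all others, and in the 3 lower genes below all others.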

How the data were processed

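Total RNA of mycelium was sequenced on a DNBSEQ platform. The authors cleaned the reads with SOAPnuke, aligned them with TopHat2 2.0.12 to the genome of ATCC 42464 and counted uniquely aligned reads with HTSeq 0.13.5, and these counts were deposited for 9110 genes. The strand setting is not given in the sources used here, so reads of overlapping genes cannot be told apart. The deposited RPKM values equal the counts divided by a fixed length per gene and by the library total (largest relative spread of the implied length 2.7e-14). From the counts, 3 rows without a gene ID were left out, and 0 columns stayed unused. The deposited tables also describe 4214 genes by their best yeast match.

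Counts of all 8 libraries were fitted with edgeR 4.0.16 in R 4.3.3, with a mean per strain, TMM factors (0.954 to 1.05), filterByExpr at a minimum count of 10, and the quasi-likelihood test with Benjamini-Hochberg adjustment. The standard error of a log2 fold change was taken as its size over the square root of F. Libraries of a strain differed beyond sampling noise, so none is another deposited again, and each entered the fit on its own. The chi-square per gene was 27.2 in DF1406, 49.5 in JG207, 27.9 in DF1102 and 140 in DF1501. The fit takes a common spread over the 4 strains. Standard errors and p-values of DF1406 against JG207 thus also carry the difference between the DF1501 libraries. Totals over the compared libraries were 20854157 to 21408353. Exact 95% intervals of count ratios cover counting error only, since molecules carried no identifiers. The script was tested on simulated data. The order of neighbouring genes came from RefSeq (assembly ASM22609v1), where 9087 gene IDs matched.

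Genes were named where the study names them by ID, where they had the 10 largest rises or falls among calls with at least 10 CPM (counts scaled to a common library total) in the higher strain, the 5 largest gains or losses in CPM, up to 4 calls of largest fold per list, the gene of largest fold in a list without calls, or a call against all other strains. This rule named 119 genes, and 23 more were chosen after their values were seen, as were neighbouring genes of the targeted loci and genes of lists named as not called. Lists came from the study's supplementary tables (IDs only) or from words in the descriptions. Members, lists and tests were chosen with earlier results of these data known, and the words were adjusted to the descriptions before fold changes were computed here. Alternatives were DESeq2 1.42.0, other scalings and filters, limma 3.58.1 on log2(RPKM + 1) or log2(RPKM + 0.1), a replicate block, the 4 compared libraries alone, no fold minimum, and fits without each DF1406 and JG207 library in turn. Fits without each DF1102 and DF1501 library were added after seeing the data, for the counts against DF1102 and against all other strains.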

Additional observations from a re-analysis of the deposited data

How the results depend on the processing

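Of the 125 called genes named here, 90 were called under every alternative that tested them and 0 changed sign. Leaving out a library cost the most calls, 16 without DF1406 replicate 1, 18 without DF1406 replicate 2, 11 without JG207 replicate 1 and 12 without JG207 replicate 2, where the lone library of a strain is assumed to vary like the others. limma on log2(RPKM + 1) lost 11, the fit of the 4 compared libraries 4, and DESeq2, RLE factors, the filter of at least 10 counts in every library and limma on log2(RPKM + 0.1) 1 each. Without a library, 513 to 598 genes were higher and 246 to 348 lower than in JG207, 1 to 17 were higher and 0 to 4 lower than in all other strains, and 109 to 312 differed from DF1102. Libraries of DF1102 and DF1501 were left out only for the counts against DF1102 and all other strains, as alternatives chosen after seeing the data. With no fold minimum the counts were 1430 higher and 1645 lower than in JG207, 34 higher and 26 lower than in all other strains, and 1815 against DF1102, so that 46.5% of calls against JG207 were higher, where the rule with a fold of 2 gave 64.0%. DESeq2 called 11 genes higher than in all other strains and limma on log2(RPKM + 1) with no filter called 4. With that limma setting 174 genes differed from DF1102. The cause was not tested. The strains share only replicate numbers, whose deviations had a correlation of -0.0536 between DF1406 and JG207. With the replicate block 589 genes were higher and 324 lower, 585 and 324 of them called without it, and 0 named calls were lost. The median log2 fold change of all genes was -0.0475 with TMM, -0.023 with RLE factors and -0.107 with library size alone. With library size alone the medians of the pentose phosphate, chaperone and proteasome lists were below 0. With 2 libraries a strain, differences under a fold of 2 and low genes are the least certain.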

Other observations

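Some genes called higher in DF1406 lay side by side in the RefSeq gene order. There were 23 runs of at least 3 neighbouring genes all called higher than in JG207, 14 of them of at least 4 and 3 of at least 5, against 1 run of 3 called lower and 0 of 4 or more. These runs were found after the values were seen and were not tested. Of all tested genes 7.13% were called higher and 4.01% lower, which alone makes runs of higher genes more frequent. The number of runs expected from these shares was not computed. One run of 5 genes held the triosephosphate isomerase gene MYCTH_39694, the dihydroxyacetone kinase gene MYCTH_40719 and the aldolase gene MYCTH_2298452 described above. Between the first 2 lay MYCTH_89872, without a description, with 1025 and 1098 RPKM in DF1406, against 21.3 and 13.3 RPKM in JG207 (log2 fold change 5.99, SE 0.40, adjusted p = 2.08e-05). The last of the run, MYCTH_2086155, matched to a histone methyltransferase, had 117 and 122 RPKM in DF1406, against 34.3 and 31.9 RPKM in JG207 (log2 fold change 1.91).

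A run of 7 genes of low level held the dienoyl-CoA reductase match MYCTH_2127410 and MYCTH_2060683, a gene called higher than in all other strains. Its log2 fold changes lay between 2.83 (MYCTH_2118764) and 5.91 (MYCTH_2127410). MYCTH_2305640, next to MYCTH_2060683, had the highest level in the run, with 18.9 and 28.2 RPKM in DF1406, against 2.02 and 1.99 RPKM in JG207. Elsewhere the zinc cluster gene MYCTH_2305522 lay beside the GH11 gene MYCTH_49824 and MYCTH_49210, which had 47.4 and 40.6 RPKM in DF1406, against 14.4 and 16.6 RPKM in JG207. Whether reads of adjoining genes mix in these counts was not tested.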
